A study of Mus musculus with 27 samples.

Results

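The Gnas locus on mouse chromosome 2 is described here by DNA methylation at single cytosines in liver cells of 9 inbred strains. The locus was taken as the GRCm38 span of Gnas, chr2:174284320-174346744 (62425 bases), with 5000 bases on either side. Its members are the positions listed in at least 2 of 3 samples of every strain: 731 of the 1951628 such positions in the genome, and of 1083 positions listed anywhere in the span. Members were not chosen by their methylation level. The study related genetic differences between strains to epigenetic marks and gene expression in hepatocytes, and only its methylation data are used here. The 27 samples came from female mice aged 12 weeks, with 3 samples of each strain and no treatment named in the labels. The laboratory strains were C57BL/6J, A/J, NOD/ShiLtJ, NZO/HlLtJ, DBA/2J and 129S1/SvImJ, and those derived from wild mice were WSB/EiJ, CAST/EiJ and PWK/PhJ. All are inbred, and none served as a control.

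Gnas encodes Gs alpha, the G protein subunit through which glucagon and adrenaline receptors raise cyclic AMP in liver cells. It is imprinted: some of its promoters carry DNA methylation on the copy inherited from only one parent. From the lower coordinate onward the promoters give NESP55, a neuroendocrine secretory protein, then XL alpha-s, a long form of Gs alpha with its own first exon, then the noncoding exon 1A transcript, and then Gs alpha itself from exon 1. NESP55 is transcribed from the maternal copy and its promoter is methylated on the paternal copy. The XL alpha-s and exon 1A regions, and the start of the antisense transcript Nespas, are methylated on the maternal copy, and the exon 1 promoter is free of methylation on both copies. Cells carrying 1 methylated and 1 unmethylated copy give a level near the middle of the scale, but the deposited values carry no parental origin, and inbred mice offer no variant to tell the copies apart.

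Reduced representation bisulfite sequencing reads cytosines close to CCGG, the site cut by MspI. Bisulfite leaves methylated cytosines as they are and converts the others, so the percent methylation of a position is the share of reads in which its cytosine stayed unconverted. The deposited files give that percent without read counts, so the sequencing depth of a position is not known. The samples listed 2904787 to 3156965 positions each, and between 703 and 731 of the 731 members. The labelled cell type could not be checked, because no end of Alb, Ttr or Apoa1 (hepatocyte genes), or of Ptprc, Cd79a or Pecam1 (blood and endothelial genes), held 5 or more members within 1000 bases. The labels do not say whether the 3 samples of a strain were separate litters or preparations, so p-values measure the spread between these samples.

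RefSeq's promoter sequences for GRCm38.p6 give 4 starts of Gnas, all on the plus strand. By the known order of the promoters, 174284320 is the start of NESP55, 174327749 and 174327768 are starts of exon 1A, and 174330006 is the start of exon 1. The start of XL alpha-s is not among them. The 250 bases before 3 of these starts are shown 5′ to 3′ because they mark what the assay did and did not reach. Capitals mark CpGs at which at least 1 strand is a member.
NESP55, chr2:174284070-174284319: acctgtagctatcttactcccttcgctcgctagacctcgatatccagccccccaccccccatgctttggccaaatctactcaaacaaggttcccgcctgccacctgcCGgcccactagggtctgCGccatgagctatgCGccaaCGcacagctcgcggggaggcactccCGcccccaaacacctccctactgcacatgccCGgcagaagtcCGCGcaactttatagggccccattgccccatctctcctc
exon 1A, chr2:174327499-174327748: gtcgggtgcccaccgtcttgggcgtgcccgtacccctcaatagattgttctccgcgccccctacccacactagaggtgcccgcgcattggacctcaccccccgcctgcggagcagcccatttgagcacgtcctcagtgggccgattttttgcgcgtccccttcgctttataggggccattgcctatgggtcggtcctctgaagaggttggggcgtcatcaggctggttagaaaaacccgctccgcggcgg
exon 1, chr2:174329756-174330005: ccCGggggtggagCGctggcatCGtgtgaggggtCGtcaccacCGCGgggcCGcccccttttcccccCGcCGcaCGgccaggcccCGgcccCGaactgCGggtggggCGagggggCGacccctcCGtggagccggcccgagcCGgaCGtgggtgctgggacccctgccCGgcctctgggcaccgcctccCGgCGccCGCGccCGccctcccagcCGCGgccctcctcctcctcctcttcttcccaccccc

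The NESP55 window holds 14 CpGs and 2 CCGG sites. Its 12 members lie on 8 of the CpGs and averaged 40.03%, with strain means from 34.1 to 47.3%. The exon 1 window holds 29 CpGs and 6 CCGG sites. Its 36 members lie on 26 CpGs and averaged 0.557%, with strain means from 0.280 to 1.03%. The window before NESP55 is partly methylated in every strain, and the window before the Gs alpha start is nearly free of methylation in every strain. The exon 1A window holds 21 CpGs but no CCGG and no listed position, so its methylation was not measured at the start itself. CCGG (its own reverse complement) occurs in 47.0% of the 32817 windows of this length in the table, whose median is 6 CpGs.

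Along the locus, 446 of the 731 members had a level of 25 to 75%, 243 were below 25% and 42 above 75%. The level of a position is the mean of its 9 strain means. By a running median over 5 positions, 697 members fell into 12 stretches of at least 5 consecutive positions of 1 class. Of these stretches, 5 were of intermediate methylation (25 to 75%, 437 members), 3 were unmethylated (below 25%, 234 members) and 4 were methylated (above 75%, 26 members). The remaining 34 members lay in 21 shorter runs. Coverage along the locus is uneven: 11 gaps exceeded 1000 bases, and the longest (10284 bases) ran from 174306266 to 174316550, between Nespas and the exon 1A starts. Levels of the stretches below were computed per sample over the positions listed in all 27 samples, except for the unmethylated stretch past Nespas.

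**Figure D1:**
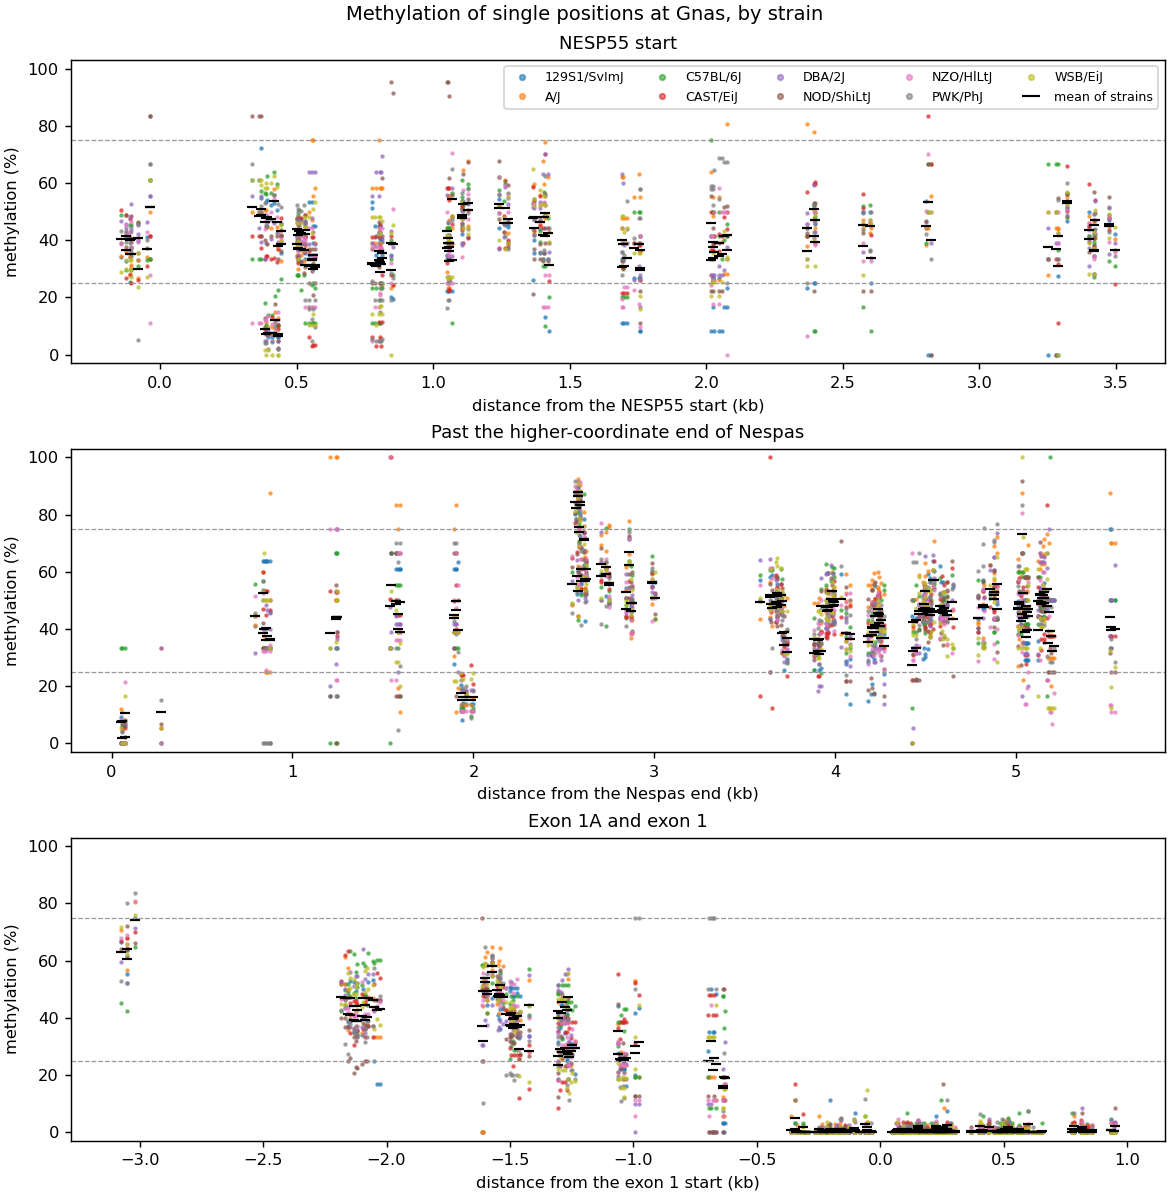
Percent methylation of single positions (vertical axis) by distance in kb from the NESP55 start, the higher-coordinate end of Nespas and the exon 1 start, with 1 coloured point per strain mean and a black bar for the mean of the 9 strains; dashed lines mark 25 and 75%. Most positions near NESP55 and past Nespas lie between the lines, and all strains drop to near 0 about the exon 1 start.

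At NESP55, 2 intermediate stretches lay around the start and in the gene body behind it. No member lay between 174284284 and 174284657, so the start itself held none. The first ran from 174284177 to 174284707 (19 members, -143 to 387 bases from the start) and averaged 37.8%. Its samples lay between 27.9 and 46.8% with a median of 37.6%, and its strain means ran from 34.3% ± 8.17 (SD, n = 3) in WSB/EiJ to 40.9% ± 3.36 (SD, n = 3) in DBA/2J. The second ran from 174284752 to 174287816 (122 members, up to 3496 bases past the start) and averaged 39.9%. In 129S1/SvImJ, the lowest strain, its samples were 34.1, 35.9 and 40.9%, a mean of 36.9% ± 3.51 (SD, n = 3). In A/J, the highest, they were 38.7, 44.4 and 51.5%, a mean of 44.9% ± 6.41 (SD, n = 3). The samples of the lowest and highest strain overlapped, and so did all 8 pairs of neighbours in the order of strains, in both stretches.

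Where these stretches meet, the strands of the same CpGs stood apart. The lower coordinate of a CpG is its cytosine on the plus strand. At 7 CpGs from 174284704 to 174284753, 384 to 432 bases past the NESP55 start, the lower-coordinate strand was at least 30 points above the other, a threshold chosen after the values were seen. Averaged over the 7 CpGs, the plus strand ran from 19.9 to 67.2% in the samples (median 46.2%), a mean of 46.8% ± 10.6 (SD, n = 27). The opposite strand ran from 0 to 31.3% (median 3.17%), a mean of 8.29% ± 8.07 (SD, n = 27). The plus strand was the higher one in 26 or 27 of 27 samples at each of the CpGs, and the difference of their mean was 38.5 points ± 12.5 (SD, n = 27), from 5.57 to 64.0. The 11 CpGs that follow, up to 174284887, averaged 35.3% on the plus and 38.7% on the minus strand. Among the 185 CpGs of the locus with both strands as members and a mean of 25 to 75%, the median difference between the strands was 3.52 points, beside 3.61 for 40637 such CpGs of the autosomes. A difference of 30 points or more was found at 6 of the 185 (3.24%), all among the 7, and at 576 of the 40637 (1.42%). The 7 CpGs lie close together, and several had the same lowest plus-strand value (18.2%). They are not separate observations, so the shares do not compare how often such differences arise.

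**Figure D2:**
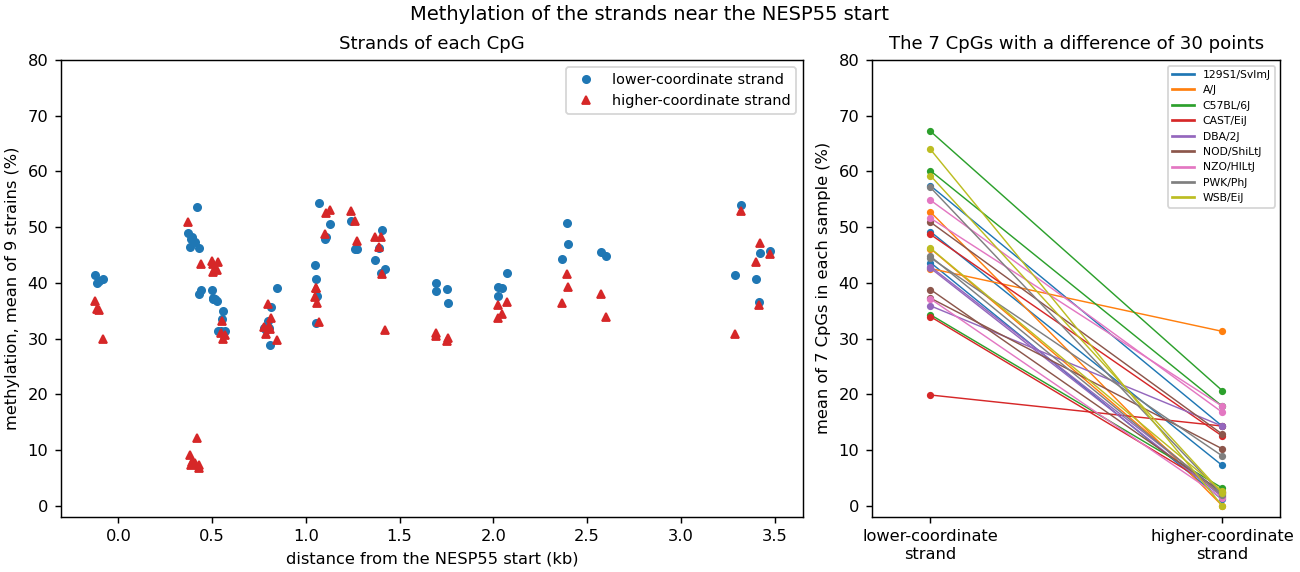
Left, percent methylation (mean of 9 strains) of each strand of CpGs by distance in kb from the NESP55 start; right, the mean of the 7 CpGs on each strand, with 1 line per sample coloured by strain. The 7 CpGs stand apart on the left with 1 strand at 6.67 to 12.2%, and every line on the right falls from the lower-coordinate to the higher-coordinate strand.

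Past the higher-coordinate end of Nespas (174295436), where the antisense transcript begins, the levels changed over short distances. The first positions, 174295489 to 174295709 (6 members), were unmethylated at 7.15%, with samples from 0 to 50% and a median of 3.33%. The sample at 50% was C57BL/6J replicate 4, whose 2 companions were at 0%. Of the single values there, 80.1% were 0 or 100%. The following intermediate stretch, 174296229 to 174297353 (27 members, 793 to 1917 bases past the Nespas end), averaged 43.1%, with samples from 17.4 to 74.8% and a median of 41.1%. In NOD/ShiLtJ its samples were 17.4, 35.4 and 65.5%, a mean of 39.4% ± 24.3 (SD, n = 3). In PWK/PhJ they were 31.7, 34.5 and 43.8%, a mean of 36.7% ± 6.32 (SD, n = 3). The pooled SD of samples within strains was 17.6 points. The strain means spanned 21.1 points, which is a range and not an SD, and the 3 samples of NOD/ShiLtJ alone spanned more. Of single values, 51.4% were 0 or 100%. The stretch was followed by 6 positions at 16.2% (174297368 to 174297431) and, after 584 bases, by 5 positions at 80.8% (174298015 to 174298027). Within those 584 bases lay 6 members in shorter runs, at levels from 53.4 to 88.0%.

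The intermediate stretch with the most members followed at once, from 174298031 to 174300980 (178 members, 2595 to 5544 bases past the Nespas end), and averaged 47.0%. Its level was the steadiest among the intermediate stretches: the pooled SD within strains was 3.04 points, and all 27 samples lay between 40.4 and 55.6%. In A/J the samples were 49.5, 51.6 and 55.6%, a mean of 52.3% ± 3.08 (SD, n = 3). In PWK/PhJ they were 48.1, 48.6 and 48.8%, a mean of 48.5% ± 0.384 (SD, n = 3). A/J lay above PWK/PhJ without overlap, but the other 7 pairs of neighbours in the order overlapped, and single samples of DBA/2J (49.6%), NOD/ShiLtJ (51.0%) and WSB/EiJ (52.4%) reached into the A/J range. C57BL/6J followed with 45.7, 47.1 and 49.3%, a mean of 47.4% ± 1.79 (SD, n = 3). In DBA/2J the level was 47.2% ± 2.09 (SD, n = 3), and in NOD/ShiLtJ 47.1% ± 3.44 (SD, n = 3). WSB/EiJ was at 46.4% ± 5.19 (SD, n = 3) and CAST/EiJ at 45.4% ± 3.18 (SD, n = 3). The lowest strains were NZO/HlLtJ at 44.8% ± 0.700 (SD, n = 3) and 129S1/SvImJ at 44.5% ± 4.07 (SD, n = 3), whose samples were 40.4, 44.6 and 48.5%. Within the stretch, blocks of positions fell from 57.7% at its start to 40.6% at 174299617 to 174299704. The blocks after that were at 45.7, 49.7, 46.6 and 41.2%.

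**Figure D3:**
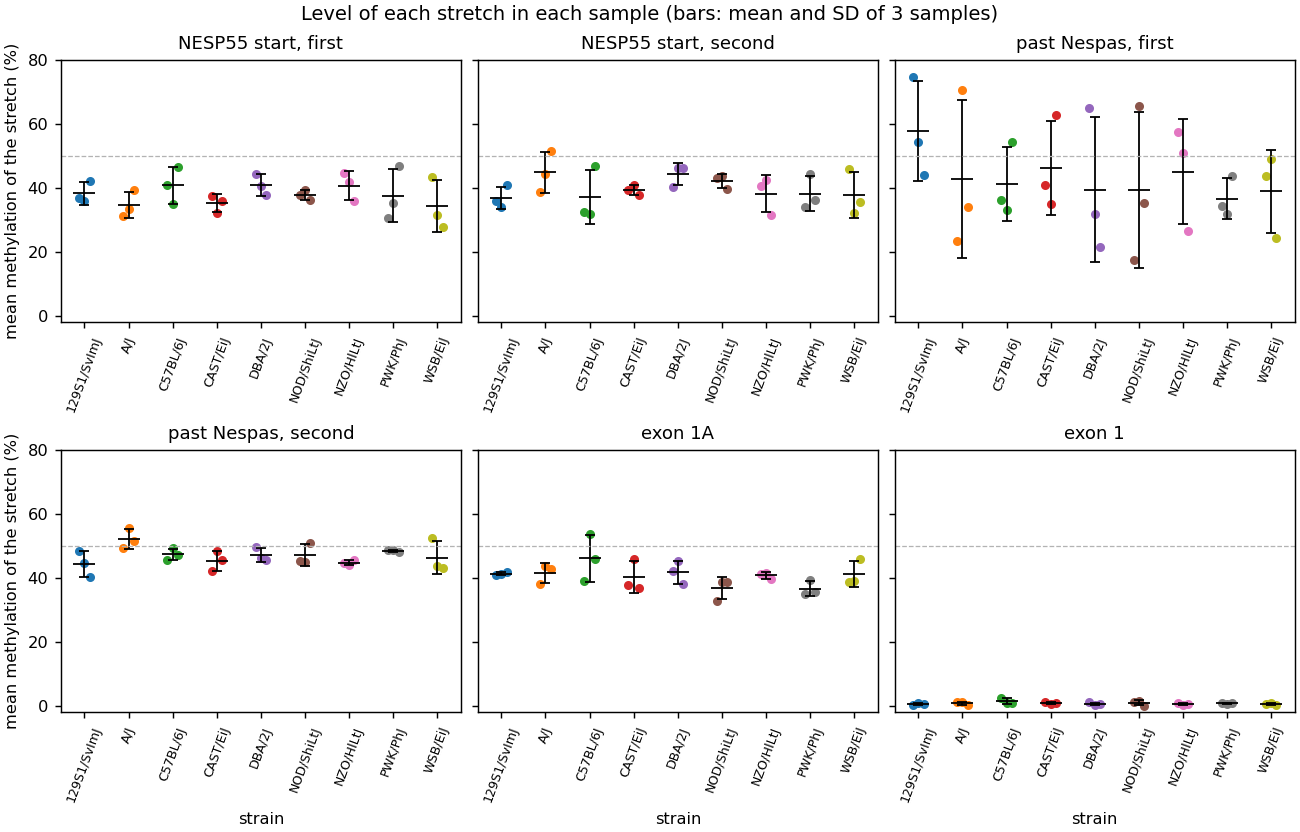
Mean percent methylation of 6 stretches in each sample (points), with the mean and SD of the 3 samples of each strain (bars); the dashed line marks 50%. Strain means of the 5 intermediate stretches lie between 34.3 and 57.8%, samples of the first one past Nespas scatter from 17.4 to 74.8%, and the exon 1 stretch lies below 3% in all samples.

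Around exon 1A, the intermediate stretch ran from 174326931 to 174329319 (91 members, -3075 to -687 bases from the exon 1 start) and averaged 40.7%. In C57BL/6J, the highest strain, its samples were 38.9, 45.8 and 53.7%, a mean of 46.2% ± 7.40 (SD, n = 3). In PWK/PhJ, the lowest, they were 35.0, 35.6 and 39.5%, a mean of 36.7% ± 2.43 (SD, n = 3). The lowest and the highest strain overlapped by a single sample on either side, and all 8 pairs of neighbours in the order overlapped. The level of 129S1/SvImJ was the closest within a strain, with 41.1, 41.2 and 41.8%. NOD/ShiLtJ, next to the lowest, had 32.7, 38.6 and 38.9%.

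In the mean of the strains, the exon 1A stretch was graded, falling toward exon 1. Its first block, -3075 to -3017 bases from the exon 1 start, was at 65.5%, with strain means from 51.1% in C57BL/6J to 70.8% in NZO/HlLtJ. The blocks at -2184 to -2027 and at -1615 to -1422 bases, past the exon 1A starts, were both at 43.4%. Levels then fell to 33.6% at -1307 to -1235, to 27.7% at -1064 to -976 and to 27.3% at -696 to -687 bases. In the last of these blocks, of 3 positions, strain means ran from 4.17% in NOD/ShiLtJ to 66.7% in PWK/PhJ. PWK/PhJ, 129S1/SvImJ, WSB/EiJ and CAST/EiJ were higher there than in the block before, and the other strains were lower. The next 7 positions, at -678 to -630 bases, stood at 20.2%, with strain means from 9.26% in DBA/2J to 38.6% in PWK/PhJ. From -362 bases onward the level was 0.479%. In the block at -1307 to -1235 bases, the 7 CpGs with both strands as members averaged 27.6% on the plus and 43.3% on the minus strand, and the minus strand was the higher one in 21 of 27 samples.

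By the running median, the border lay between -687 and -678 bases from the exon 1 start. Taken in each sample alone, the last intermediate position lay between -1268 and -630 bases (median -666, n = 27). In the mean of each strain it lay at -1061 bases in A/J, DBA/2J and NZO/HlLtJ, at -1031 in NOD/ShiLtJ, at -666 in 129S1/SvImJ, CAST/EiJ and WSB/EiJ, at -639 in PWK/PhJ and at -630 in C57BL/6J. Single samples differed more widely than the strains in DBA/2J, and nearly as widely in C57BL/6J (-1031 to -630) and NZO/HlLtJ (-1064 to -666). All 3 samples of 129S1/SvImJ lay at -666 bases, and those of CAST/EiJ, PWK/PhJ and WSB/EiJ lay within -666 to -630. The border of the mean need not be that of any sample. In DBA/2J the samples' borders lay at -1268, -1031 and -634 bases. In A/J they lay at -992, -678 and -672 bases and in NOD/ShiLtJ at -696, -637 and -630, all nearer to the start than the border of the strain's mean. No member lies between -630 and -362 bases.

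**Figure D4:**
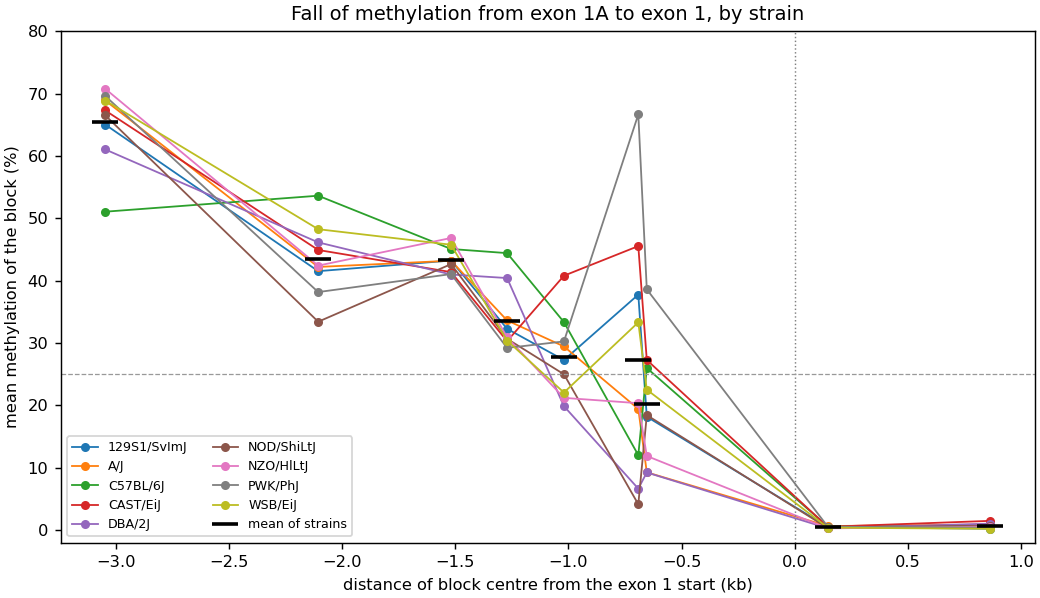
Mean percent methylation of blocks of neighbouring positions (vertical axis) by distance in kb of the block's centre from the exon 1 start (dotted line), with 1 line per strain and black bars for the mean of the strains; the dashed line marks 25%. All strains fall from 51.1 to 70.8% in the first block to below 1% in the block over the start, and they spread most in the 2 small blocks between -696 and -630 bases.

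Around the exon 1 start, from which Gs alpha is transcribed, methylation was close to 0 in every sample. The unmethylated stretch ran from 174329328 to 174330956 (222 members, -678 to 950 bases from the start) and averaged 0.847%. Its samples lay between 0.111 and 2.49% with a median of 0.815%, with the lowest strain mean in 129S1/SvImJ (0.549% ± 0.287, SD, n = 3) and the highest in C57BL/6J (1.46% ± 0.891, SD, n = 3). Of single values, 92.1% were 0 or 100%. All neighbours in the order overlapped, but the lowest and the highest strain did not (0.224 to 0.770% and 0.940 to 2.49%). These levels rest on the 209 members listed in all samples, which leave out 174329328 and 174329334. Over all 7 members of the first block, -678 to -630 bases, PWK/PhJ was the highest strain at 38.6%, so the order depends on the positions used. The block of 195 members over the start, -362 to 653 bases, was at 0.479%, with samples from 0.119 to 1.02%. Past it, 3 methylated stretches were read: 89.2% at 174334518 to 174334593 (6 members), 85.0% at 174336620 to 174337711 (10 members) and 96.3% at 174351689 to 174351709 (5 members, beyond the gene's higher end). Strain means of these 3 stretches lay between 78.8 and 99.2%. In each of the 3, the samples of the lowest and the highest strain did not overlap. In the first they were 79.6 to 86.8% in 129S1/SvImJ and 92.4 to 95.7% in PWK/PhJ, although all 8 pairs of neighbours overlapped.

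Whether the strains differed was tested by limma's moderated F test over the 9 strains, on log2((percent + 5)/(100 - percent + 5)), fitted to all positions of the genome whose mean lay at least 2.5 points from 0 and from 100%. A call required an adjusted p (Benjamini-Hochberg) under 0.05 together with strain means that spanned at least 25 points. Genome-wide, 37643 of 868551 positions were called (4.33%). At Gnas, 14 of 515 tested members were called, which is 2.72%. The other 216 members were outside the range of means. An unadjusted p under 0.05 was reached by 32 of the 515 (6.21%), beside 15.4% of all positions. Of the members with a mean of 25 to 75%, 13 of 446 were called (2.91%), beside 13.7% of the 131628 such positions on the autosomes. The share called at the locus was thus below that of the genome in each count, which is a description of the locus and not a test of it.

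The called positions fell into a few groups, and neighbours within a group had the same value in most samples, so they are not separate observations. The widest ranges were at 174296643 (0 in C57BL/6J, 100% in A/J, adjusted p = 0.041, limma's moderated F test) and 174296977 (0 in C57BL/6J, 100% in A/J, adjusted p = 0.014, limma's moderated F test). At both, all 3 A/J samples were at 100% and both listed C57BL/6J samples at 0%, while samples of the other strains ranged from 0 to 100%. At 174296977 the 2 listed NZO/HlLtJ samples were also at 100%. At 174285166, 174285370, 174285373 and 174285378, behind the NESP55 start, NOD/ShiLtJ was the highest strain. Over these 4 positions its samples were 82.1, 100 and 100%, a mean of 94.0% ± 10.3 (SD, n = 3), and all other 24 samples lay at or below 60%. PWK/PhJ, the lowest, had 0, 20 and 35.3%, a mean of 18.4% ± 17.7 (SD, n = 3), and the adjusted p of the 4 positions in limma's moderated F test lay between 0.011 and 0.043.

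At 174284876, also behind the NESP55 start, A/J samples were 50, 75 and 100% and CAST/EiJ samples 0, 0 and 9.09% (adjusted p = 0.016, limma's moderated F test). PWK/PhJ was low there too, with 0, 0 and 14.3%. At 174299073, in the stretch of 178 members past Nespas, the 2 listed CAST/EiJ samples were both at 100% and the 2 listed PWK/PhJ samples at 0 and 50% (adjusted p = 0.0091, limma's moderated F test). There the remaining 7 strains had means of 43.4 to 56.5%.

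At the border to exon 1, 174329328 and 174329334 were called, and PWK/PhJ was the highest strain. Over both, its 2 listed samples were at 75%, those of CAST/EiJ at 33.3, 50 and 50%, and those of C57BL/6J and DBA/2J all at 0%. The adjusted p was 0.00051 at 174329328 and 0.017 at 174329334 (limma's moderated F test). They are the first positions of the unmethylated stretch. The remaining 4 called positions lie from 174285109 to 174285134, with ranges of 59.1 to 63.9 points.

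The opposite strand was a member at 11 of the 14 called positions, and it was called at none of them, with adjusted p from 0.44 to 0.91 (limma's moderated F test). The order of strains was not kept there. At 174299074, opposite 174299073, CAST/EiJ was the lowest strain at 25%. At 174296978, opposite 174296977, A/J was at 50%, C57BL/6J at 66.7% and NZO/HlLtJ at 22.2%. At 174284875, opposite 174284876, A/J was at 47.2% and CAST/EiJ at 41.1%. Opposite each of the 4 positions at which it was highest, NOD/ShiLtJ was at 38.9%. Whether a sequence variant of a strain lies at a called position was not tested. When both strands of a CpG were averaged, 4 of 317 tested CpGs of the locus were called, beside 5.55% genome-wide. With an offset of 1 point in place of 5 in the log ratio, 8 positions of the locus were called. Genome-wide that offset called 2.90%, where the main fit called 4.33%. Without the filter on the mean, 4 of 731 members were called, beside 1.49% genome-wide. Leaving out 1 sample at a time gave 8 to 17 called positions, with 9 or fewer without A/J replicate 2 or 3, CAST/EiJ replicate 1 or 4, DBA/2J replicate 4 or NOD/ShiLtJ replicate 2 or 3. The call was kept in all 27 such fits at 174284876, 174296977, 174329328 and 174329334, but without the filter on the mean only 174329328 of these kept it. It was kept in 25 of 27 at 174285166, 174285370, 174285373 and 174299073, in 15 at 174296643 and in 8 at 174285378. Of the remaining 4, 174285109 kept it in 21, 174285134 in 15, 174285127 in 12 and 174285125 in 5.

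Averaging over 1 kb tiles with at least 5 positions, no tile of the locus was called. Of 18 tiles, 17 were tested, 4 had an unadjusted p under 0.05 (limma's moderated F test), and 0 met both criteria, beside 4506 of 58172 tiles genome-wide (7.75%). An adjusted p under 0.05 was reached by the tile at 174334001 to 174335000, in the methylated part past the exon 1 start (adjusted p = 0.036, limma's moderated F test), but its strain means spanned only 9.70 points. The lowest was 129S1/SvImJ, with a mean of 84.0% ± 3.86 (SD, n = 3), and the highest PWK/PhJ, with 93.7% ± 1.77 (SD, n = 3). Genome-wide, 20.6% of tiles had an adjusted p under 0.05 and 32.5% an unadjusted one.

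The locus had 11 tiles with a mean of 25 to 75%, of which 0 were called, beside 3070 of 9657 such tiles on the autosomes (31.8%). The range of strain means in the 11 tiles had a median of 13.2 points, from 6.11 to 37.1. Over all autosomal tiles of that class the median was 21.9 points. A range of 25 points or more was seen in 1 of the 11 tiles and in 40.4% of the autosomal ones. That tile, 174296001 to 174297000, had an adjusted p of 0.59 (limma's moderated F test), and its samples spread from 9.04 to 89.9%. The SD within strains had a median of 6.4 points in the 11 tiles and 6.30 in the autosomal ones. The median number of positions per tile was 33 and 8. The part of the number of positions in the narrower ranges was not tested.

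**Figure D5:**
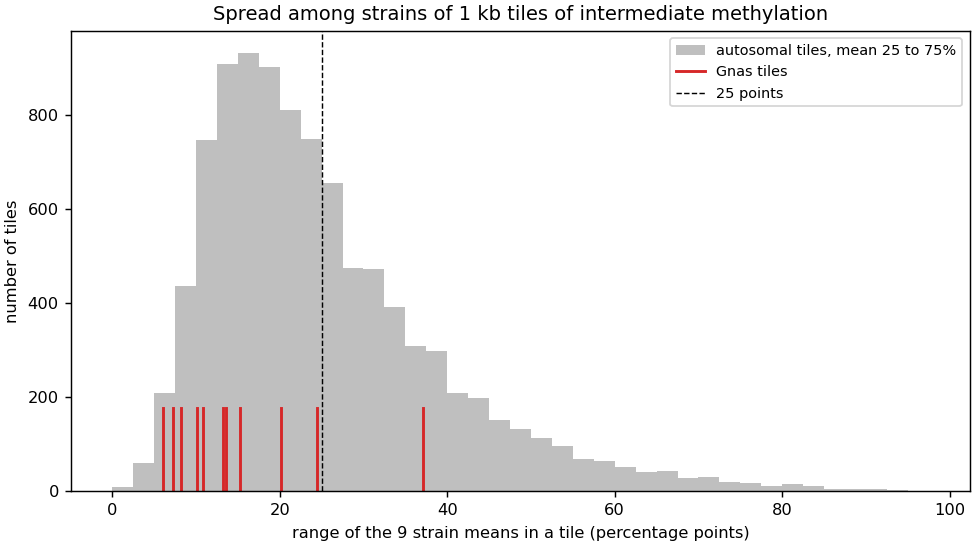
Number of autosomal 1 kb tiles with a mean of 25 to 75% (grey bars) by the range of their 9 strain means in percentage points, with red lines at the 11 tiles of the Gnas locus and a dashed line at 25 points. Of the Gnas tiles, 10 lie between 6.11 and 24.5 points and 1 lies at 37.1.

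Levels of 25 to 75% were also read at other imprinted genes, in a list chosen with earlier results of these data known. Of the 24 gene ends in that list with at least 5 members within 1000 bases, 20 had such a level (83.3%), beside 1048 of 16311 ends of autosomal protein-coding genes (6.43%). They included Peg3 (45.0%), a paternally expressed zinc finger gene, Kcnq1ot1 (39.0%), an antisense RNA, Plagl1 (41.4%), Zrsr1 (40.3%), Meg3 (48.8%), Magel2 (36.2%) and Mkrn3 (28.0%). Igf2r was at 29.9% and its antisense RNA Airn at 39.3%. H19 was at 47.4 and 41.6% at its ends, Mcts2 at 45.9 and 48.3%, and Nnat at 69.8 and 44.6%. Nap1l5 was at 69.9%, Mest at 55.2%, and Peg10 and Sgce, which share their start, at 42.8%. Strain means at the Mest end ran from 36.5 to 86.1%, and 11 of its 17 tested positions were called, beside 4.33% of all positions. The higher-coordinate end of Nespas, inside the Gnas locus, was at 26.9%. That is a mean over 15 positions, the 6 of the unmethylated stretch and 9 that averaged 40.3%. Without Nespas, 19 of 23 ends of the list had a level of 25 to 75% (82.6%).

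Among autosomal protein-coding genes, 12831 of the 16311 ends read were below 25% (78.7%). Of 17 ends read among 15 other G protein alpha subunit genes, 13 were below 25% (76.5%), a share close to that of all genes, 1 was above 75% and 3 were between. These 3 were the higher-coordinate ends of Gnaz (67.8%), Gna15 (55.7%) and Gnat1 (51.8%). The other end was at 1.81% in Gnaz and 5.95% in Gna15. Gnai2, an inhibitory subunit, was at 0.437% and Gnaq at 0.489%. Of 27 ends read among 26 genes between glucagon and its cyclic AMP targets, 24 were below 25% (88.9%), 2 above 75% and 1 between. That was the lower-coordinate end of Adcy4, an adenylyl cyclase, at 63.4%, and the other end of Adcy4 was at 9.96%. Creb1, a transcription factor activated by the pathway, was at 0.398%, and Prkaca, the catalytic subunit of protein kinase A, at 0.426 and 3.61% at its ends. With positions counted once for each end they lie near, 30 of 942 tested positions of the imprinted genes were called (3.18%), 4 of 144 of the alpha subunits (2.78%) and 2 of 365 of the pathway (0.548%), beside the 4.33% of the genome. Of the 30, 11 lay at Mest and 6 at each end of Mcts2. Without Nespas the imprinted genes had 30 of 929 (3.23%).

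Among the 10130 autosomal genes with at least 100 members, Gnas was second by number of members at 25 to 75% and ranked 8 by their share, 61.0%. The 5 genes with the most similar shares of members below 25%, at 25 to 75% and above 75% were Commd1, Hapln4, Airn, Pcdha1 and Igf2r, by Euclidean distance over the 3 shares. Commd1 was the nearest (distance 2.11 percentage points, 62.7% of 161 members at 25 to 75%), followed by Hapln4 (11.6). Airn was at a distance of 12.4, Pcdha1 at 16.2 and Igf2r at 17.2. Of their tested positions, 9 of 127 were called in Commd1, 36 of 97 in Hapln4, 1 of 179 in Airn, 20 of 308 in Pcdha1 and 0 of 185 in Igf2r, beside 14 of 515 in Gnas. Genome-wide the share was 4.33%, and 13.7% among autosomal positions with a mean of 25 to 75%. In Igf2r, 21 of the 185 had an unadjusted p under 0.05 (limma's moderated F test), beside 15.4% of all positions. The imprinted gene Zrsr1 lies within Commd1, Airn overlaps Igf2r, and Nespas overlaps Gnas, so that their members are partly the same.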

How the data were processed

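DNA methylation was read in 27 samples by reduced representation bisulfite sequencing after MspI digestion, per the labels' protocols. The submitters' processing notes name Trim Galore 0.6.3, Bowtie2, Bismark 0.22 and the builds GRCm38 and mm10. For each sample the authors deposited a percent methylation per position, without read counts, so no counting interval or coverage filter was possible. C57BL/6J files name the mitochondrial chromosome M and the other 8 strains MT, so that a processing difference cannot be told apart from that strain. Of 302256 members in RefSeq start windows, 99.96% fell on a CpG, and 22.4% after a shift of 10 bases.

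Samples were grouped by strain. The moderated F test was computed in Python 3.11.15 (numpy 2.4.6, scipy 1.17.1), using the samples present at each position. Its p-values differed from those of limma 3.58.1 in R 4.3.3 by at most 2.6e-07 on 100000 positions without missing samples. On 21714 positions with missing samples the largest difference was 0.15, and 22 lay on different sides of an adjusted p of 0.05. That limit applies to the called positions 174296643, 174296977, 174299073, 174329328 and 174329334, at which samples were missing. The fits were tested on simulated data. CpGs were paired by strand within runs of consecutive listed positions of even length, read from the first as plus and minus, which the sequence bore out for 99.96% of members in start windows; odd runs were left unpaired. The stretches (ended by gaps over 1000 bases) and borders were described without a test. The members, lists and rules were chosen with earlier results of these data known. All stretches were named, the 10 called positions with the largest range, list genes with an end of 25 to 75%, and the 5 genes most like Gnas; Gnai2, Gnaq, Creb1 and Prkaca were named after their values were seen. The alternatives changed the offset, scale, filters, strands, tiles, class limits and samples.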

Additional observations from a re-analysis of the deposited data

How the results depend on the processing

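The replicate numbers in the labels do not pair the samples: deviations of same-numbered samples from their strain means correlated between -0.0081 and 0.0088 over 76 pairs, and 5 of 27 samples matched their own number best. With the replicate block, 9 positions of the locus were called in place of 14, and 3.18% of positions genome-wide in place of 4.33%. An offset of 1 point gave 8 called positions (2.90% genome-wide), no filter on the mean 4 (1.49% genome-wide), and averaged strands 4 of 317 (5.55% genome-wide). Leaving out a sample gave 8 to 17 called positions, and 33679 to 39181 genome-wide, where the main fit called 37643. There were 9 without A/J replicate 2, A/J replicate 3, CAST/EiJ replicate 1, NOD/ShiLtJ replicate 2 or NOD/ShiLtJ replicate 3, and 8 without CAST/EiJ replicate 4 or DBA/2J replicate 4. The positions 174284876, 174296977, 174329328 and 174329334 were called in all 27 of these fits; without the filter on the mean the first, second and last had adjusted p of 0.076, 0.089 and 0.084 (limma's moderated F test). No tile of the locus was called under any alternative except without a minimum range, which called 1. With strands averaged, 265 CpGs lay in intermediate, 141 in unmethylated and 7 in methylated stretches, and methylated stretches numbered 1; each CpG then counts once. Taking the median over positions gave 0% for the exon 1 stretch and 91.0 and 99.0% for the last 2 methylated stretches. Within 500 bases of an end, 0 ends of the glucagon to cAMP genes were intermediate. The cause of these changes was not tested. Of 1651 alternative values, 1511 kept their call or their size. That tally includes tiles that were uncalled and stayed so, and is no measure of how stable the calls are. The call was lost in 119 of the alternative values, all at the 14 called positions. Unknown depth limits single positions most, where values of 0 and 100% are frequent.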

Other observations

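Members made up 731 of the 1083 listed positions of the span, and 1951628 of 5240332 genome-wide. Of the 352 listed positions of the span that were not members, 136 were listed in all 3 samples of at least 1 strain and in none of at least 1 other. At 37 of them every strain had all samples or none. PWK/PhJ alone lacked 7 of these, 6 of them between 174330913 and 174330927, past the exon 1 start. CAST/EiJ alone lacked 6, from 174298128 to 174298474, at the start of the intermediate stretch of 178 members. 129S1/SvImJ alone lacked 5, from 174327949 to 174327987, just past the exon 1A starts, and WSB/EiJ alone lacked 1. PWK/PhJ alone listed 4 positions (174297314, 174297315, 174345194 and 174345195) and CAST/EiJ alone 2 (174286691 and 174286692). WSB/EiJ alone also listed 4, from 174285320 to 174285358, which lie among the positions behind NESP55 at which NOD/ShiLtJ was highest. The genome-wide share of positions listed in some strains and absent from others was not computed. Whether these counts are particular to the locus is therefore not known.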
